A study of Mus musculus with 6 samples.

Results

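The spliceosome is the RNA and protein machine that removes introns from messenger RNA precursors. The gene group described here comprises 40 genes that encode its core proteins, chosen by name from the known composition of the particles, with earlier results of these data known. All 40 were among the 19386 genes in the authors' expression table, and 66 alternative splicing events of 10376 in the authors' splicing table lay within 19 of them.

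Introns are recognised step by step. The U1 particle pairs with the 5′ splice site, while Sf1, U2af2 and U2af1 bind the branch point, the pyrimidine tract and the AG at the 3′ splice site. The U2 particle then takes over the branch point through its SF3a and SF3b proteins, and the tri-snRNP of U4, U6 and U5 joins. Helicases and the Prp19 complex convert this assembly into the catalytic form, and Dhx15 helps to take it apart. Several of these genes are known to produce alternative transcripts with early stop codons that are degraded by nonsense-mediated decay.

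RNA was sequenced from bone marrow-derived macrophages, cells grown out of marrow for days in medium that contains supernatant of L929 cells, a source of macrophage growth factor. The donor mice were wild-type C57BL/6 animals. One group of 3 libraries came from mice exposed to cigarette smoke and the other group of 3 from mice kept in room air, and both were harvested on day 11 of culture. The smoke reached the animal before the culture, and the labels give no age, sex, dose or length of exposure. The question is whether macrophages derived from the marrow of exposed animals differ from those of unexposed ones.

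Expression was available as the mean normalized count of each group and as the authors' DESeq2 comparison, in a fit that held 24 libraries, of which 18 were not analysed here. Splicing was available as a percent inclusion in each library. Total counts per library were not among the values used, so depth is unknown and no interval from counting error can be given. In RNA from whole cultures, fewer cells of a type and less RNA per cell cannot be told apart. The labels do not name the animal behind each library, so the p-values measure a spread between libraries, whatever its source. For expression, that spread was estimated in the authors' fit of 24 libraries. For the splicing levels tested below, it came from the 6 libraries, with variances drawn toward those of all events. All 10 macrophage markers were listed, with a summed mean normalized count of 56292 in room air and 56821 after smoke. Of these 10, 5 had positive and 5 negative log2 fold changes, and 0 had a DESeq2 adjusted p under 0.05. Mrc1 averaged 3601 in room air and 2196 after smoke, and Fcgr1 averaged 536.6 and 761.6. Only 4 of 6 B cell, 1 of 6 erythroid and 3 of 5 dendritic markers were listed, and each of these lists summed to less than 7. Neutrophil markers, 4 of 10 listed, summed to 14.6 and 20.7, and T and NK cell markers, 2 of 6 listed, to 32.01 and 24.5. Stromal markers, 6 of 6 listed, summed to 45.6 and 8.10.

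Core spliceosome genes differed little in level between the groups. For 28 of the 40 genes the larger group mean exceeded the smaller by less than 25%, and none differed by 2-fold or more in the authors' deposited table. Log2 fold changes of smoke over room air ran from -0.60 to 0.77 there, 22 positive and 18 negative, with a median of 0.04 beside 0.00 over the 12082 genes tested. All 40 passed the authors' filter on low counts, and the standard error exceeded the size of the fold change for 17 of them. At an adjusted p under 0.05 in the authors' deposited table, 5 of 40 genes (12.5%) were called, beside 7.69% of all genes tested. Of these, 3 were higher after smoke (7.5%, beside 4.15%) and 2 were lower (5%, beside 3.53%). An unadjusted p under 0.05 was reached by 16 of the 40 (40%, beside 22.8%), and an adjusted p under 0.1 by 10 (25%, beside 12.8%).

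**Figure D1:**
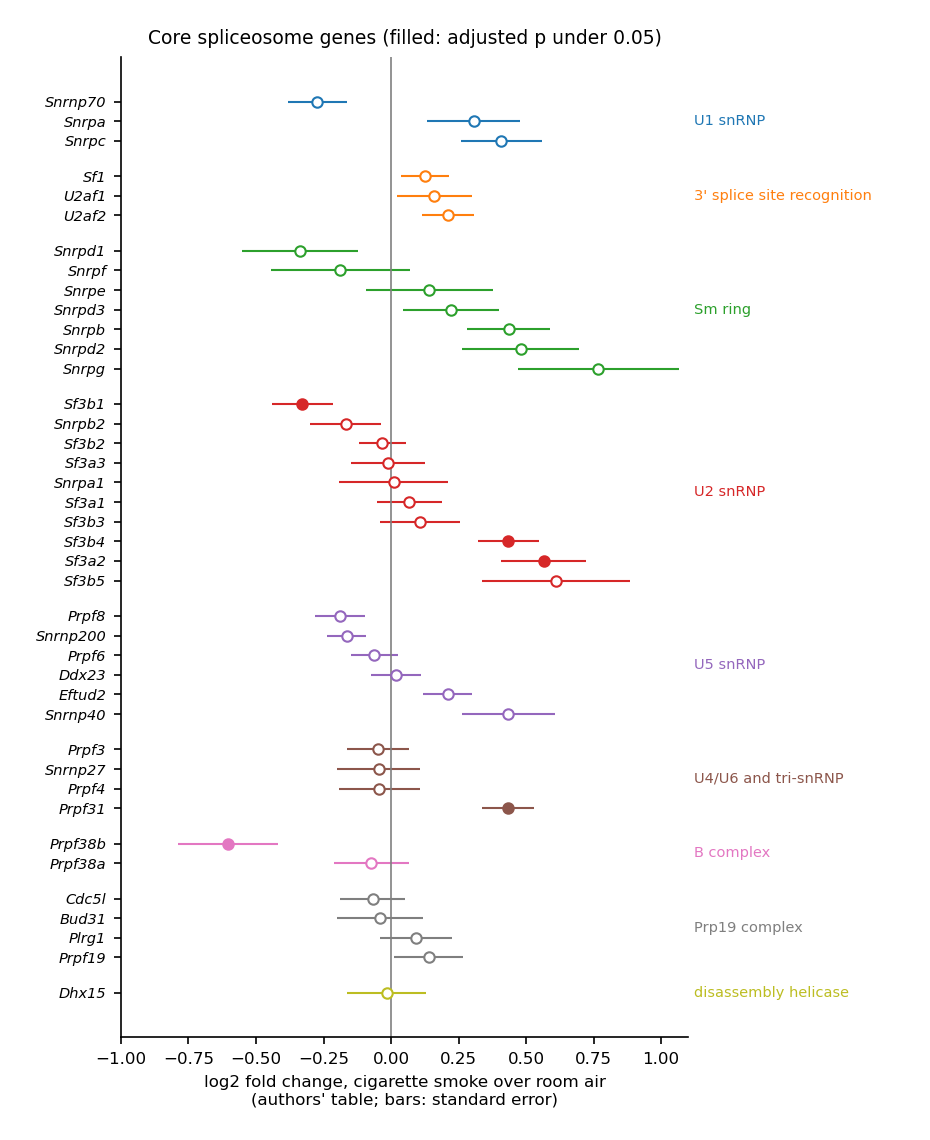
Log2 fold change of cigarette smoke over room air for each of the 40 core spliceosome genes, grouped by particle, from the authors' DESeq2 table. Points are estimates, bars are standard errors, and filled points mark the 5 genes with an adjusted p under 0.05, of which 3 lie to the right of 0 and 2 to the left.

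The U2 particle held 3 of the 5 calls among its 10 genes (30%, beside 7.69% of all genes tested), in both directions. With the dependence on GC content and length taken out, 0 of these 10 genes were called. Sf3a2 (chr10:80798198-80804924, plus strand, GRCm38) encodes a subunit of SF3a, the complex that helps U2 to bind the branch point. Its mean normalized count was 209.4 in room air and 312.2 after smoke, and the authors' deposited table gave the change as 0.56 on the log2 scale (SE 0.16, DESeq2 adjusted p 0.0110). Sf3b4 (chr3:96172332-96177564, plus strand) encodes a subunit of SF3b that contacts the precursor upstream of the branch point. By the authors' deposited table it rose from 287.5 to 391.8 normalized counts, by 0.43 on the log2 scale (SE 0.11, adjusted p 0.00606). Sf3b1 (chr1:54985169-55027481, minus strand) encodes the scaffold of SF3b that holds the branch point adenosine and is often mutated in myelodysplastic syndromes. By the authors' deposited table it fell from 1981 to 1572 normalized counts, by 0.33 on the log2 scale (SE 0.11, adjusted p 0.0467). This call was lost when p-values were adjusted over all genes with a p-value (adjusted p 0.0736), when fold changes were recentred by the median of -0.01 (adjusted p 0.0555), and when the dependence on GC content and length was taken out (-0.04, adjusted p 0.964). In the authors' deposited table the highest estimate of the particle, 0.61 for the small subunit Sf3b5 with means of 63.1 and 98.3 normalized counts, carried a wide error (SE 0.27, adjusted p 0.152).

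The remaining 2 calls fell in the tri-snRNP and the B complex. Prpf31 (chr7:3629985-3642486, plus strand) encodes a protein that links U4/U6 to U5 and is mutated in inherited retinal degeneration. The authors' deposited table gave it the lowest adjusted p of the 40 genes, 0.000940, with means of 266.2 and 356.6 normalized counts and an increase of 0.43 on the log2 scale (SE 0.10). In the authors' deposited table the lowest of the other 3 tri-snRNP genes was Prpf3, at -0.05 (SE 0.11). Prpf38b (chr3:108902805-108911727, minus strand) encodes a protein with an arginine and serine rich tail, related to the B complex protein Prpf38a. The authors' deposited table gave it the largest decrease of the 40 genes, from 605.3 to 395.3 normalized counts, or -0.60 on the log2 scale (SE 0.19, adjusted p 0.0239). The authors' deposited table had its relative Prpf38a at -0.07 (SE 0.14).

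The U1 genes, the Sm ring and the U5 genes gave no DESeq2 call at that threshold, while 2 of 3, 3 of 7 and 4 of 6 had an unadjusted p under 0.05, beside 22.8% of all genes tested. For the U1 genes, the highest estimate of the authors' deposited table was that of Snrpc, whose product stabilises pairing with the 5′ splice site, at 0.41 (SE 0.15, adjusted p 0.0683). The lowest in the authors' deposited table was that of Snrnp70, whose product binds U1 RNA itself, at -0.27 (SE 0.11, adjusted p 0.0984), with means of 987.7 and 813.2 normalized counts. The Sm ring is the set of 7 small proteins around the U1, U2, U4 and U5 snRNAs. Its genes ran from -0.34 (SE 0.22) for Snrpd1 to 0.77 (SE 0.30) for Snrpg. The authors' deposited table put the adjusted p of Snrpd1 and Snrpg at 0.363 and 0.0879. Snrpg averaged 43.5 and 75.5 normalized counts. Of the 7 ring genes 5 had positive estimates. The standard errors of the 7 ran from 0.15 to 0.30, with a median of 0.22 beside 0.14 over the 40 genes. For U5 in the authors' deposited table, the WD-repeat protein gene Snrnp40 had the highest estimate, 0.43 (SE 0.17, adjusted p 0.0946), and Prpf8, which encodes the scaffold of the catalytic centre, had the lowest, -0.19 (SE 0.09, adjusted p 0.201).

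Genes of 3′ splice site recognition and of the late complexes were close to 0. The authors' deposited table gave U2af2, U2af1 and Sf1 estimates of 0.21 (SE 0.10), 0.16 (SE 0.14) and 0.13 (SE 0.09), and their adjusted p lay between 0.166 and 0.531. In that deposited table of the authors, the 4 genes of the Prp19 complex ran from -0.07 (SE 0.12) for Cdc5l to 0.14 (SE 0.13) for the ubiquitin ligase gene Prpf19, and Dhx15 was at -0.02 (SE 0.15). None of these 8 genes was called by DESeq2, and U2af2 alone had an unadjusted p under 0.05. Levels per length differed far more between members than between groups. In room air the authors' means, divided by the length of the longest annotated transcript, were lowest for Sf3b5 at 16.4 normalized counts per kb and highest for Sf3b2 at 395.9.

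Across all genes the fold changes were correlated with transcript composition, and 4 of the 5 called members lost their call when this was taken out. Over 12071 genes with an annotated transcript, the deposited log2 fold change had a Spearman's rho of 0.48 with GC content and of -0.45 with transcript length; over the 40 members the values were 0.39 and -0.20. These values describe genes measured in the same libraries, which are not independent replicates. Sf3a2 had a GC content of 62.2% and Sf3b4 of 56.2%, while Sf3b1 stood at 42.1% and Prpf38b at 38.8%. Once the dependence on GC content and length was taken out of the deposited values, 1.27% of all genes and 3 of the 40 members (7.5%) were called. Prpf31, with a mid-range GC content of 50.9%, stayed among them, at 0.37 with an adjusted p of 0.0174. The other 2 were Snrpc, at 0.61 with an adjusted p of 0.0102, and Snrnp70, which stood at -0.41 with an adjusted p of 0.0228. Length and GC content were those of the longest annotated transcript, 6107 bases for Snrpc, and shorter transcripts were not tried. The other 4 genes lost their call, with residuals of 0.19 for Sf3a2, 0.16 for Sf3b4, -0.04 for Sf3b1 and -0.36 for Prpf38b and adjusted p of 0.742, 0.669, 0.964 and 0.449. Whether this dependence arose in the cells or in the libraries was not tested.

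**Figure D2:**
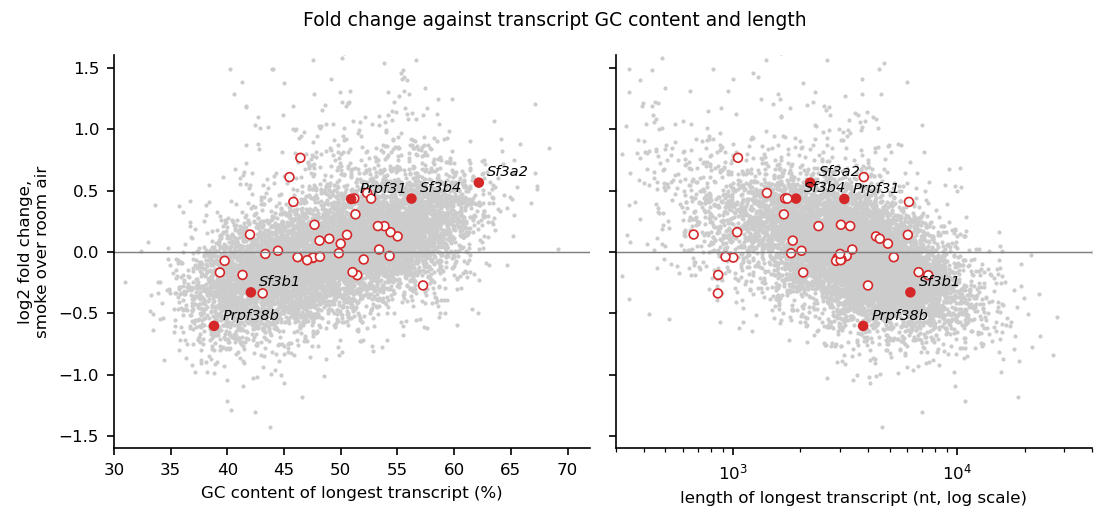
Log2 fold change of smoke over room air against GC content (left, percent) and length (right, nucleotides, log scale) of the longest transcript of each gene. Grey points are genes whose mean reached 50 normalized counts, red circles are the 40 core spliceosome genes and filled circles those with an adjusted p under 0.05; values beyond 1.6 either way are not drawn, and Sf3a2 and Prpf38b lie at opposite ends of the GC axis and of the slope.

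Other spliceosome genes were read from lists of associated factors, of which 80 genes were tested. In the authors' deposited table, 2 were higher and 8 lower after smoke at an adjusted p under 0.05, 12.5% in all, beside 7.69% of all genes tested (4.15% higher and 3.53% lower). The 15 tested U1 and U2 associated factors held 1 higher and 5 lower genes, with a median log2 fold change of -0.22 there. Of these, U2surp and Ddx46 were no longer called with fold changes recentred by -0.01, at adjusted p of 0.0565 and 0.0557. By the authors' deposited table Prpf39, a U1 associated protein, fell by 0.90 (SE 0.19, adjusted p 0.000437) and Luc7l2, which tunes the choice of 5′ splice site, fell by 0.55 (SE 0.10, adjusted p 4.6e-05). Luc7l3, U2surp and Ddx46 fell by 0.70, 0.40 and 0.35, and Puf60, which assists U2af2, rose by 0.38. Transcript GC content was 37.6% for Prpf39 and 56.5% for Puf60. Of the 16 LSm and other tri-snRNP genes, Lsm4 of the ring around U6 rose by 0.73 and the kinase gene Prpf4b fell by 0.71. Snrnp48 and Zrsr2, among 9 tested genes of the minor spliceosome that serves a rare class of introns, fell by 0.67 and 0.59. None of 22 other Prp19 complex and catalytic factors, 5 exon junction complex genes and 13 Sm ring assembly genes was called by DESeq2, and 2, 1 and 3 of them had an unadjusted p under 0.05, beside 22.8% of all genes. None of the 10 calls kept an adjusted p under 0.05 once this dependence was taken out, which does not show that these genes did not change. Prpf39 stood at -0.61 (adjusted p 0.0732), Luc7l2 at -0.35 (adjusted p 0.0514), Luc7l3 at -0.44 (adjusted p 0.167) and Zrsr2 at -0.42 (adjusted p 0.209), while U2surp stood at 0.00 (adjusted p 0.999). Prpf4b stood at -0.35, Snrnp48 at -0.34, Lsm4 at 0.30, Ddx46 at -0.14 and Puf60 at 0.10, with adjusted p from 0.310 to 0.862.

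**Figure D3:**
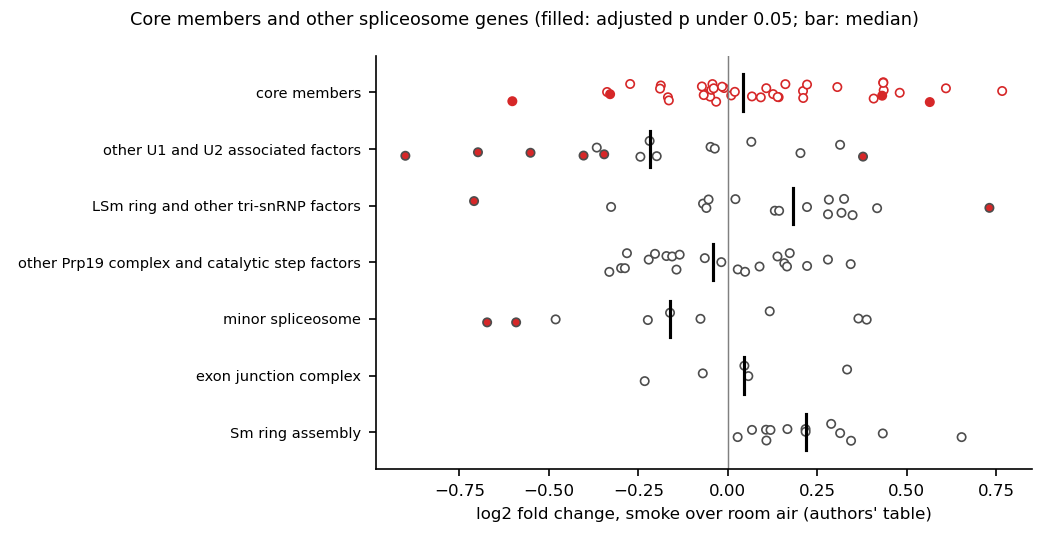
Log2 fold change of smoke over room air, from the authors' table, for the 40 core members and the 80 tested genes of 6 other spliceosome lists. Each circle is a gene, filled at an adjusted p under 0.05, and the vertical bar is the median of the list, at 0.04 for the core members and -0.22 for U1 and U2 associated factors.

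Splicing of the transcripts of these genes was then read from the JuncBASE levels, the percent of junction reads, and for some event types exon reads, that support the inclusion form. The 66 events formed 32 sets that share no junction, so they are fewer than 66 independent measurements. In a limma fit to all events, 6 of the 66 (9.09%) had an unadjusted p under 0.05, beside 10.8% of all 10376 events. No member event passed after adjustment over the whole table, in which 0 events did, and the lowest adjusted p of a member was 0.243, which does not show that splicing of these genes did not differ. In the authors' deposited table, 2 of the 66 (3.03%) had an unadjusted p under 0.05, beside 4.15%. Smoke replicate 1 had no value in 12 of the 66 events, against at most 1 in any other library. Over all 10376 events, smoke replicate 1 had no value in 4169, against at most 398 in any other library. Without smoke replicate 3 the limma fit called 4 of the 66 (6.06%) after adjustment, beside 10.9% of all events. At an unadjusted p under 0.05 that fit held 14 member events (21.2%), beside 24.9%. Of the 54 events with 6 values, 6 had every smoke value below every room air value (11.1%, beside 19.3% of all such events), and 2 had every smoke value above (3.7%, beside 3.84%). The events described next had the lowest p or the largest differences, or were picked for their annotation after their values had been seen.

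Bud31, which encodes a small zinc-binding protein that joins the spliceosome with the Prp19 complex, held the largest mean difference of the 66 events, -9.34 percentage points. Its exon 2 lies in the 5′ untranslated region and ends at either of a pair of donors 76 bases apart, both of them annotated. The donors are shown because the choice between them carries the difference, on the plus strand of GRCm38 with the first 2 bases after each donor in capitals, at chr5:145141346-145141375 and chr5:145141422-145141451.
Bud31 upstream donor: gtcacagaatagttgGTaaatctggacaag
Bud31 downstream donor: tctcaatacccaaagGTattgtgcattcct
Use of the downstream donor, which keeps the 76 bases, was 97.2%, 95.9% and 95.2% in the room air libraries and 90.0%, 82.6% and 87.7% in the smoke libraries. Every smoke library was below every room air library, at 86.8% ± 3.78 (SD, n = 3) against 96.1% ± 1.04 (SD, n = 3). The difference on the log2 odds scale was -1.68 (SE 0.49), with an unadjusted limma p of 0.0116 and an adjusted p of 0.290. Counted from junction reads alone, the same choice stood at 98.1%, 97.3% and 96.7% against 92.9%, 87.5% and 91.0%. The authors' deposited table gives these measures an unadjusted p of 0.0422 and 0.0406. In the authors' deposited rMATS table, the intron that starts at the upstream donor differed by 22.7 percentage points between the 2 sample sets, with a false discovery rate of 0.0163. That interval (chr5:145141361-145142447) contains the 76 bases, so reads from the longer exon fall inside it, and the table does not say which set is which group. The intron after the downstream donor differed by 0.7 percentage points, and the authors' deposited table put its false discovery rate at 1. At the end of exon 1 of Bud31, the most upstream of 3 donors, compared with junctions of which some are marked as new, was used at 90.6%, 87.8% and 92.5% in room air and at 100%, 93.6% and 95.4% after smoke by junction reads. Every smoke value was above every room air value, and the limma p was 0.0896. With exon reads the same choice stood at 96.7%, 93.5% and 98.0% against 100%, 96.7% and 97.6%, where the groups overlapped and the limma p was 0.243. The authors' deposited table put the level of Bud31 at 290.7 and 280.5 normalized counts, a change of -0.04 on the log2 scale (SE 0.16).

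Sf3b1, the called U2 gene with the lower level after smoke, carried a retained intron and a short exon in the same place. Intron 4 of its coding transcript (chr1:55014563-55016375, minus strand, 1813 bases) has a 56-base exon inside it (chr1:55014869-55014924) that is annotated in a transcript subject to nonsense-mediated decay. The intron ends are shown with its first and last 2 bases in capitals, and the exon with the stop codon that ends the reading frame of that transcript.
Sf3b1 intron 4 donor: tttgcagatgGTaattctttcccacttttc
Sf3b1 intron 4 acceptor: gtcctgttgctgttcttttctgcAGgaggg
Sf3b1 56-base exon: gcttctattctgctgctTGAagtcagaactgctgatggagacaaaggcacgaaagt
Retention of the intron was 25.5%, 26.1% and 22.4% in room air and 10.0%, 22.2% and 14.6% after smoke. The groups did not overlap, yet smoke replicate 2 lay just under the lowest room air library, and the limma p was 0.142. Inclusion of the 56-base exon was 7.32%, 5.56% and 6.74% in room air and 0% and 2.38% in smoke replicates 2 and 3. Smoke replicate 1 had no value and was left out of that fit, which gave an unadjusted limma p of 0.0270 and an adjusted p of 0.385. Leaving out any of the room air libraries took that unadjusted p past 0.05, to between 0.0644 and 0.0764. On the untransformed percent scale it was 0.0988. Both forms had lower group means after smoke, as did the Sf3b1 level itself.

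Sf1, whose product is the first to bind the branch point, had 10 events, more than any other member. Its intron 3 (chr19:6368440-6371266, plus strand, 2827 bases) was retained at 9.86%, 12.2% and 7.91% in room air and at 4.55%, 3.45% and 5.30% after smoke. The groups did not overlap, with an unadjusted limma p of 0.0494 and an adjusted p of 0.458. The unadjusted limma p was 0.0547 on the untransformed percent scale, 0.0680 with a pseudocount of 5 percentage points and 0.0862 with replicate number as a block. The ends of this intron are shown with its first and last 2 bases in capitals.
Sf1 intron 3 donor: ctgaggacagGTtgggaaacagttttaacc
Sf1 intron 3 acceptor: agtaatgaggatctgtctcccacAGgtccc
The exon before it, exon 3, was included at 95.9%, 96.7% and 95.9% in room air and at 90.9%, 100% and 94.3% after smoke, so the groups overlapped. Skipping it removes 76 bases and so shifts the reading frame. Near the 3′ end of the gene, JuncBASE listed a choice of last exon between a 205-base interval and a more distal exon. In a coding transcript the interval is exon 13 of 14, and in another it lies within the last exon, exon 13. Use of the interval stood at 32.7%, 37.5% and 24.6% against 45.8%, 41.0% and 31.6%. Those ranges overlapped, and the limma p was 0.360. A 21-base acceptor choice of Sf1, with a junction marked as new, stood at 93.1%, 93.6% and 90.2% against 100%, 95% and 92.7%, with a limma p of 0.193.

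The U2af pair at the 3′ splice site had isoform levels that overlapped between the groups. U2af1 has a pair of alternative 67-base exons of which a coding transcript carries 1, and they encode variants of the same stretch of its protein. They are shown because their inclusion was measured separately, on the minus strand at chr17:31651646-31651712 and chr17:31652502-31652568, with the 23 of 67 positions at which they differ in capitals.
U2af1 downstream exon: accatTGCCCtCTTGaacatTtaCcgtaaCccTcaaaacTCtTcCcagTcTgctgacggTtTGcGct
U2af1 upstream exon: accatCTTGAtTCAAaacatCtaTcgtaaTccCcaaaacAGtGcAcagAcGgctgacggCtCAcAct
The downstream exon was included at 92.3%, 91.3% and 91.2% in room air and at 91.7%, 100% and 92.3% after smoke. The upstream exon stood at 9.09%, 10.2% and 5.41% against 5.88%, 0% and 8.86%. The downstream form dominated in every library, and both limma p exceeded 0.25. The intron before the downstream exon, which spans the upstream one, was retained at 3.23%, 3.64% and 4.11% in room air and at 5.88%, 9.09% and 5.26% after smoke. Every smoke value was above every room air value, the reverse of Sf3b1 and Sf1, and the limma p was 0.148. In U2af2 a downstream donor adds 12 bases, a multiple of 3, to an exon of which the longer form ends at chr7:5075239. The end of the longer exon is shown with the added bases in capitals.
U2af2 exon end: gccaagaatgccacgctgGTGAGCCTCCCG
By junction reads the longer form made up 28.0%, 23.6% and 36.8% in room air and 29.3%, 34.1% and 29.0% after smoke, with a limma p of 0.834. The spread among room air libraries was wider than the difference between the groups. Nearer the start of U2af2, an acceptor that adds 711 bases was used at 9.84%, 15.1% and 8.54% in room air and at 3.33%, 4.26% and 9.17% after smoke. The groups overlapped through smoke replicate 3, and the limma p was 0.109.

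Snrnp70, like Sf3b1, has alternative exons inside an intron. In its intron 7 a 60-base exon (chr7:45383125-45383184, minus strand) belongs to a transcript annotated for nonsense-mediated decay. Its length is a multiple of 3, unlike that of the Sf3b1 exon, and it is shown with its stop codon in capitals.
Snrnp70 60-base exon: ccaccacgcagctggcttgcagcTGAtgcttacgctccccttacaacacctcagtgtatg
It was included at 10.8%, 20.4% and 9.77% in room air and at 20.8%, 10.2% and 12.5% after smoke. A 1360-base form of the same exon stood at 25.2%, 37.3% and 22.3% against 29.6%, 19.7% and 30%. Retention of the whole intron was 15.1%, 27.1% and 16.5% against 24%, 10.2% and 21.1%. In all 3 measures the libraries of a group were spread over a similar range and the group means differed by less than 2 percentage points, with limma p between 0.823 and 0.860. Room air replicate 2 and smoke replicate 2 lay on opposite sides in each.

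**Figure D4:**
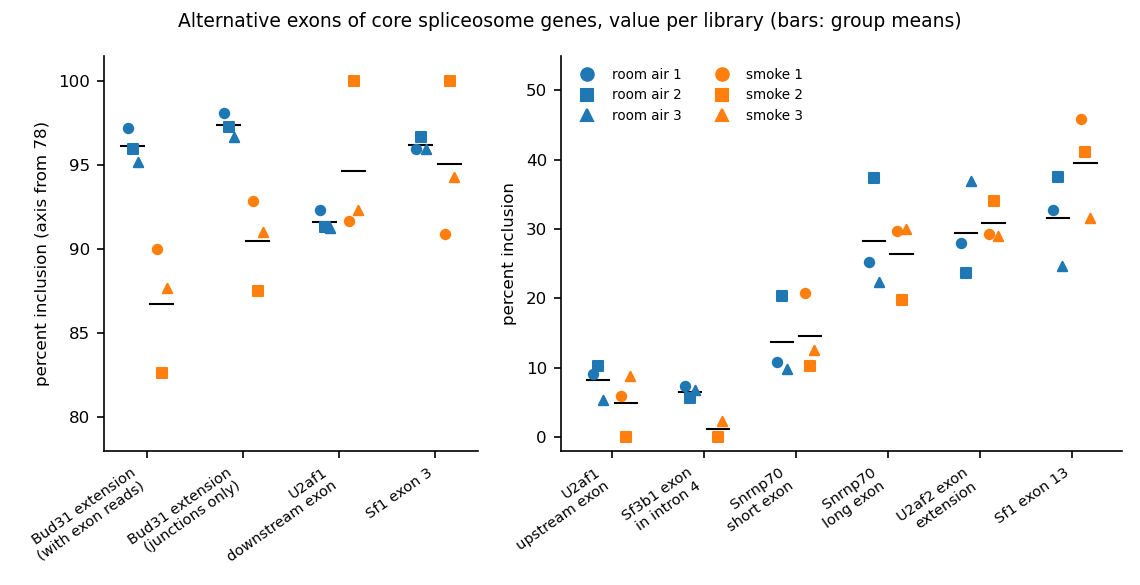
Percent inclusion per library for alternative exons and donors of Bud31, U2af1, Sf1, Sf3b1, Snrnp70 and U2af2, with room air in blue, smoke in orange, replicate numbers as marker shapes and group means as bars. The left axis starts at 78%, smoke replicate 1 has no value for the Sf3b1 exon, and the U2af2 values are from junction reads; the Bud31 groups are apart, while those of U2af1, Snrnp70 and U2af2 overlap.

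Among the other events of low p, Prpf19 and Sf3b4 involved junctions that JuncBASE marked as new. Joint inclusion of a run of Prpf19 exons was 100% in each room air library and 90.9% and 97.3% in smoke replicates 2 and 3, with an unadjusted limma p of 0.00728 and no value for smoke replicate 1. A second version of the same Prpf19 event with a value in smoke replicate 1 stood at 100%, 94.7% and 98.4% after smoke, and its limma p was 0.107. For the first version the p was 0.0901 on the untransformed percent scale. A minor donor of Sf3b4 was used at 5.00%, 5.26% and 3.23% in room air and at 0%, 0% and 2.99% after smoke, with an unadjusted limma p of 0.0348. Leaving out any library except smoke replicate 3 raised that p to between 0.0608 and 0.108. Intron retention in Snrpa (chr7:27195557-27195990, minus strand), which encodes a U1 protein, was 30%, 20.8% and 19.4% against 10.0%, 11.8% and 25%, with a limma p of 0.230. Its groups overlapped through smoke replicate 3. In the U5 helicase gene Ddx23, a donor that adds 45 bases was used at 6.25%, 7.32% and 11.4% against 25%, 12.5% and 6.25% by junction reads. The smoke libraries spanned more than the room air ones, and the limma p was 0.337.

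Mean retention over the member introns was lower after smoke, with library values that overlapped between the groups. The 11 member introns with 6 values, from 9 genes, had mean levels of 10.9%, 13.4% and 9.65% in the room air libraries and 7.99%, 8.38% and 10.0% in the smoke libraries. Smoke replicate 3 lay above the lowest room air library. Room air averaged 11.3% ± 1.92 (SD, n = 3) and smoke 8.79% ± 1.07 (SD, n = 3). The difference was -2.53 percentage points, and without room air replicate 2 it was -1.48. Over all 1992 such introns, the members included, the difference was -4.23 percentage points, and its distance from that of the members was not tested. The mean was lower after smoke for 8 of the 11 introns, beside 1842 of all 1992. In Sf3b1 and Sf1, 2 of the 11 had every smoke value below every room air value (18.2%, beside 38.7% of all introns). The U2af1 intron was the 1 with every smoke value above (9.09%, beside 0.251%). Among RNAs that stay in the nucleus, Malat1 averaged 11351 normalized counts in room air and 4603 after smoke, and the authors' deposited table puts the change at -1.30 on the log2 scale (SE 0.27, adjusted p 0.000428). The 4 listed nuclear RNAs summed to 15047 and 7153 normalized counts, with 2 of 3 tested lower in the authors' deposited table and Neat1 at -0.51 with an adjusted p of 0.402. With the dependence on GC content and length taken out, 1 of the 3 was called and their median went from -1.29 to -0.57. Expression has no value per library here, and their part in the retention values was not tested.

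**Figure D5:**
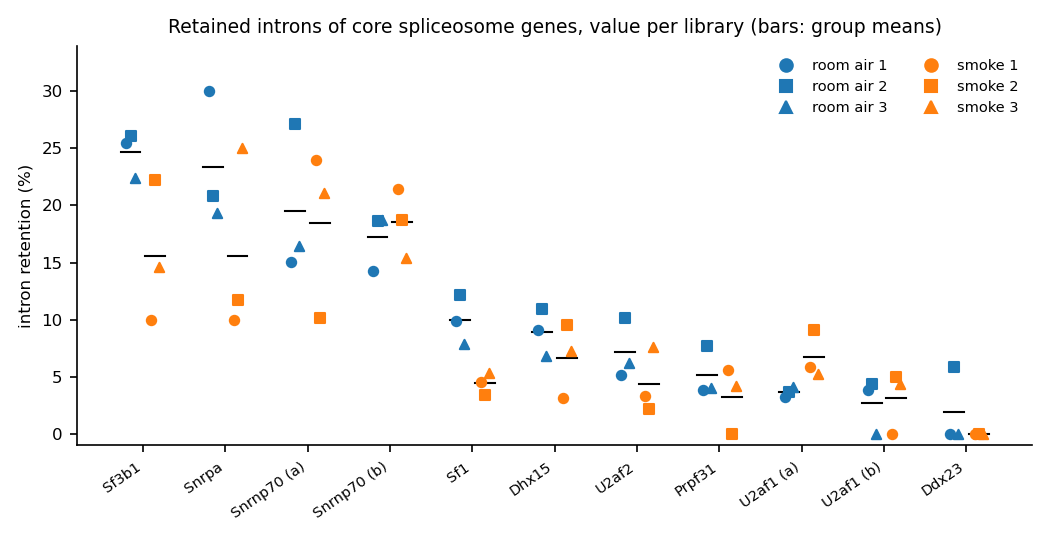
Percent retention per library of the 11 introns of core spliceosome genes with a value in every library, ordered by the room air mean; (a) and (b) are different introns of a gene. Room air is blue, smoke is orange, marker shapes are replicate numbers and bars are group means, and the groups are apart for Sf3b1, Sf1 and U2af1 (a).

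The authors' deposited rMATS table listed 16 introns in 13 of the genes, none of them identical to a retained intron of the JuncBASE table. At a false discovery rate under 0.05 it held 2 of the 16 (12.5%), beside 14.5% of all 3887 introns. At an unadjusted p under 0.05 it held 5 (31.2%), beside 25.7%. The 2 were the Bud31 interval given above and intron 7 of Prpf31 (chr7:3634863-3636200, plus strand, 1338 bases), whose ends are shown with the first and last 2 intron bases in capitals because Prpf31 was also the most firmly called gene of the group.
Prpf31 intron 7 donor: aagatcatggGTgaggtcccagcggggtcc
Prpf31 intron 7 acceptor: gctctgacctcacctcttgttgcAGgtgtg
This intron is kept in a Prpf31 transcript annotated for nonsense-mediated decay. By the authors' deposited table it differed by 1.4 percentage points between the sample sets, at a false discovery rate of 0.00464. The direction relative to smoke is not given here, since that table names the sets only as 1 and 2.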

How the data were processed

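Libraries were made from total RNA with a directional kit, per the labels' protocols. The authors used STAR, DESeq2, SAMtools 1.9, bedtools 2.27.1 and the mm10 build, per the submitters' processing notes, which give no order. The authors deposited group means of size-factor-normalized counts (a signal, per the file headers), log2 fold changes with standard errors, the Wald score, p-values and adjusted p-values from a fit of 24 libraries; no expression value per library was used. The authors' JuncBASE table gives percent inclusion per event and library, with p-values; the other deposited quantities are its difference of medians and the rMATS difference, a fraction converted here to percentage points. In the deposited rMATS table, 6 columns of per-sample values were not used because the sample sets are not named.

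Members were matched by symbol, and events and introns by containment in the gene body on the same strand (GENCODE M21, GRCm38, the same assembly as mm10). Sequences were read from the GENCODE M21 transcripts. Inclusion p was turned into log2((p + 1)/(100 - p + 1)) and fitted for all 10376 events with limma 3.58.1 in R 4.3.3, group as the term, missing values left out, with Benjamini-Hochberg adjustment over all events. GC content and length of the longest transcript were removed from the deposited fold changes by weighted splines of 4 degrees of freedom (statsmodels 0.14.6). Scripts were tested on simulated data. Genes named were those past an adjusted p of 0.05 and the highest and lowest of each role; events named were those at an unadjusted p under 0.05, the 5 largest differences each way among those with 6 values, and others chosen for their annotation after their values were seen. The members, gene lists and tests were chosen with earlier results of these data known. Replicate numbers, which come from the sample titles, did not pair the libraries. Alternatives covered thresholds, filters, pseudocounts, recentring, the trend, the block and leaving out each library.

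Of the members, 5 overlap another gene on the same strand and 15 one on the other strand, and the use of strand in counting is not given in the sources used here. For the called genes Sf3b4 (Gm22027 and, antisense, Gm17690), Prpf31 (antisense Gm15927) and Sf3a2 (antisense Plekhj1) shared reads are therefore possible. Small Sm protein genes have near-identical pseudogenes, so their counts are uncertain.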

Additional observations from a re-analysis of the deposited data

How the results depend on the processing

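Expression results have no value per library here, so leaving out a library was not possible for them, and it was not done for rMATS, whose sample sets are not named. Lower member genes numbered 2 in the authors' deposited table, 0 at an adjusted p of 0.01, and 1 under adjustment over all genes with a p-value, with the trend removed, or with fold changes recentred by the median of -0.01. Higher member genes numbered 3, and 7 at 0.1.

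Member events at an unadjusted p under 0.05 numbered 6, ranged from 4 to 14 when each library was left out (14 without smoke replicate 3), and were 3 on the percent scale and 2 by the authors' p. Events past adjustment ranged from 0 to 4 (4 without smoke replicate 3). Both Bud31 measures kept an unadjusted p under 0.05 in 11 of 11 alternatives each. The retention difference was -4.17 for introns at 10% or more and ranged from -3.37 to -1.48 with a library left out (-1.48 without room air replicate 2). Introns with all smoke values lower numbered 1 at that level and ranged from 2 to 4. Introns past rMATS numbered 1 at 0.01, 4 at 0.1 and 1 with a minimum of 10 points.

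Same-numbered libraries had correlations of 0.02, -0.04 and -0.09 over 5933 events, and no smoke library correlated best with the room air library of its number. With replicate number as a block, 3 member events had an unadjusted p under 0.05 and 0 passed adjustment. The Sf1 intron, the Sf3b1 exon and the Sf3b4 donor were then at an unadjusted limma p of 0.0862, 0.0804 and 0.0779.

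The depth behind each splicing level is unknown, so the precision of single levels, those of 0% and 100% among them, cannot be given.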

Other observations

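Several members had alternative splice sites whose use overlapped between the groups. A 3-base choice of donor in Snrpa, a U1 gene, stood at 41.2%, 63.3% and 73.5% in room air and 64.3%, 65.2% and 62.5% after smoke by junction reads, and the room air libraries alone covered the whole range of the smoke ones. A 3-base acceptor choice in Sf3b2, which encodes an SF3b subunit near the branch point, stood at 94.4%, 95.2% and 94.6% against 95.7%, 89.2% and 94.6%. In Snrpb2, which encodes a U2 protein, a 66-base acceptor choice stood at 96.9%, 92.3% and 95.2% against 85.7%, 91.3% and 97.1%. In the helicase gene Dhx15, an 8-base acceptor choice, which shifts the reading frame, stood at 100%, 100% and 94.3% against 100%, 92.7% and 92.0%. The limma p of these 4 events lay between 0.346 and 0.701, and their groups overlapped.

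The JuncBASE table listed no event for 21 of the 40 genes, among them Prpf8, Snrnp200 and the 7 Sm ring genes; the authors' deposited rMATS table listed an intron of Prpf8 and, with an unadjusted p of 0.0141, an intron of the Sm ring gene Snrpb.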
